A study of Mus musculus with 6 samples.

Results

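Bone morphogenetic proteins (BMPs) are secreted ligands of the TGF-β superfamily, and 9 genes of their pathway were followed in bulk RNA sequencing of mouse thoracic aorta. The 9 members were 3 ligands (Bmp2, Bmp4 and Bmp6), 3 antagonists (Grem1, Nog and Bambi) and 3 Id genes (Id1, Id2 and Id3), chosen by name from the 52636 genes of the count table. All 9 had counts in every library and received an adjusted p-value. The 6 libraries came from 12-week-old male mice. WT mice (n = 4) were C57BL/6J and untreated. Tgfbr1/2iSMCKO mice (KO, n = 2) carried loxP-flanked Tgfbr1 and Tgfbr2, Myh11-CreERT2 and the mT/mG reporter, and were injected with tamoxifen (2 mg daily on 5 days) starting at 11 weeks. The Cre recombinase is driven by the promoter of Myh11, a smooth muscle gene, so the deletion is aimed at smooth muscle cells (SMCs) and the other cells of the wall keep both receptors. WT mice lacked the floxed alleles, the Cre and the reporter as well as tamoxifen, so effects of these cannot be told apart from that of receptor loss. Libraries are named by the number in their column code (WT-1 to WT-4, KO-1 and KO-2), and each is taken to be 1 mouse.

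BMPs bind receptor pairs that phosphorylate Smad1, Smad5 and Smad9, a branch separate from the Smad2 and Smad3 branch used by TGF-β. The phosphorylated Smads enter the nucleus with Smad4 and switch on, among others, the Id genes, whose proteins bind E proteins and keep them off DNA. Noggin and gremlin 1 trap the ligands outside the cell, whereas Bambi is a membrane protein that resembles a type I receptor without a kinase and dampens both BMP and TGF-β signals. In vessels, endothelial cells are a known source of Bmp2 and Bmp6, and BMP activity is known for its part in calcification and in vessel maturation.

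Total estimated counts ran from 19650983 to 28860598 per library. The targeted genes do not check the KO label, since counts are per gene and not per exon, and other cells of the wall keep both receptors. Receptor loss itself was not tested in these libraries. Tgfbr1 had 4510 ± 725.6 (SD, n = 4) normalised counts in WT and 5174 ± 857.6 (SD, n = 2) in KO, and Tgfbr2 had 6240 ± 882 (SD, n = 4) and 5861 ± 108 (SD, n = 2). Normalised counts are estimated counts divided by a size factor for each library. The KO libraries differed from WT, and from each other, in markers of other cell types. The summed level of 7 cardiac muscle genes was 25960 normalised counts in KO-1, 2817 in KO-2 and 803.7 to 1899 in WT. That of 6 white adipocyte genes was 31700 in KO-2, 3543 in KO-1 and 2105 to 3743 in WT, and that of 5 red blood cell genes was 61680 in KO-2, 11080 in KO-1 and 859.3 to 5990 in WT. The 8 smooth muscle genes summed to 838700 in KO-1 and 998200 in KO-2, with 883200 to 1043000 in WT. Of the 8, 0 passed the test (10.1% of all tested genes did). At an unadjusted DESeq2 p-value under 0.05 there were 4 of the 8 (21.8% of all tested genes). These moved both ways: Myh11 had a log2 ratio of 0.36, and Tagln, Cnn1 and Smtn had -0.41, -0.38 and -0.3. The groups did not overlap in 5 of the 8 (33.9% of all tested genes). No smooth muscle marker was at 0 in any library. Of 14 circadian clock genes, 12 passed (3 higher and 9 lower), and mitochondrial genes took 11.7% of counts in KO-2 against 2.62% to 4.44% in the others. The part of these differences in the results below was not tested.

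Across the 9 members, 5 estimates were higher and 4 lower in KO, from -0.64 (Bambi) to 1.32 (Nog) in log2 units. With the DESeq2 Wald test adjusted over all genes (Benjamini-Hochberg), 1 member passed an adjusted p-value of 0.05, and that was Bambi, which fell. Of all 17537 genes with an adjusted p-value, 10.1% passed (5.53% higher and 4.54% lower in KO), so 1 of 9 is near the share of all genes. With a change of more than 2-fold asked for as well, 0 of 9 members were called, against 5.49% of all genes (3.45% higher and 2.04% lower). At an unadjusted p-value of 0.05 the count was 1 of 9 with DESeq2, against 21.8% of all genes, and 2 of 9 with edgeR, against 24.8% of the 16114 genes it tested. The median log2 ratio of KO to WT was 0.01 for the members and 0.01 for all tested genes. In 2 members, Bambi and Nog, the groups did not overlap, against 33.9% of all genes tested.

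**Figure D1:**
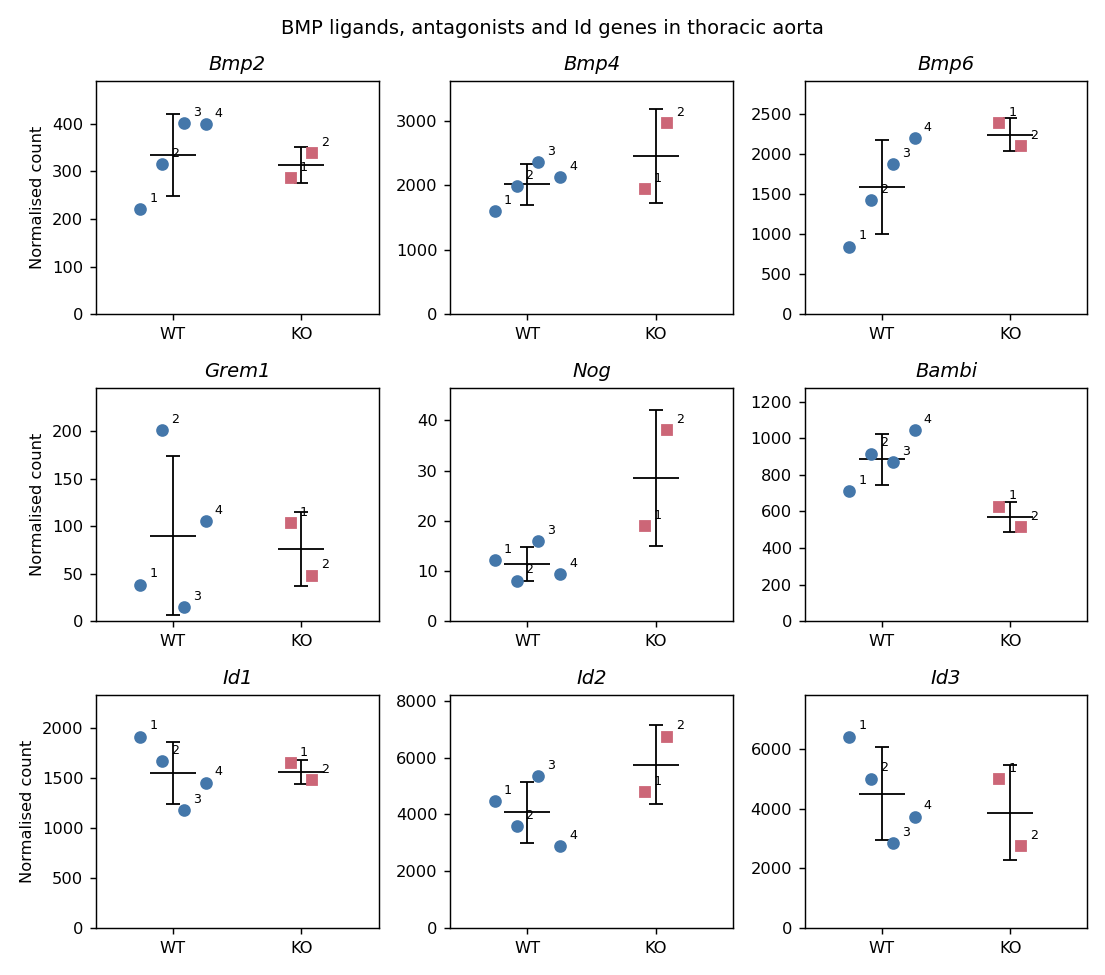
Normalised counts (y axis, linear from 0) of the 9 members in WT (blue circles, n = 4) and KO (red squares, n = 2), with the library number beside each point, the mean as a horizontal line and the SD as error bars. Bambi lies lower in both KO libraries than in every WT library, Nog lies higher at very low counts, and the groups of the other 7 members overlap.

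Levels differed far more between members than between groups. Per kilobase of merged exons, the Id genes were the most abundant members in WT, with 2508 ± 868.8 (SD, n = 4) normalised counts for Id3, 1670 ± 438.1 for Id2 and 1337 ± 267.8 for Id1. The WT ranges of these 3 genes overlapped, and that of Id1 also overlapped the next in order, Bmp4, at 897.1 ± 142.2. Bmp6 followed at 407.1 ± 150.5, Bambi at 174.5 ± 27.3 and Bmp2 at 94.1 ± 24.1, each separated from its neighbours in the order. Per kilobase of coding length the order of Bmp6 and Bambi turned, with 1038 ± 383.7 and 1135 ± 177.7 (SD, n = 4) and overlapping ranges. On merged exons, Grem1 (21.7 ± 20.1) and Nog (6.72 ± 2.06) were lowest, and their ranges overlapped each other.

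**Figure D2:**
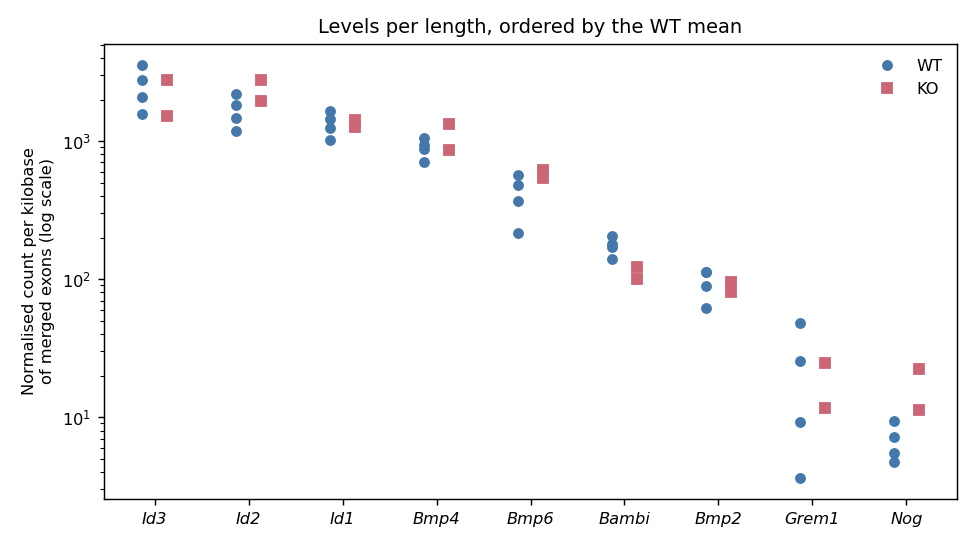
Normalised counts per kilobase of merged exons (y axis, log scale) for each member in WT (blue circles, n = 4) and KO (red squares, n = 2), ordered from left to right by the WT mean. Levels fall from a WT mean of 2508 for Id3 to 6.72 for Nog, and the KO points of most members lie within or beside the WT points.

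Of the ligands, Bmp4, which signals through the same receptors as Bmp2, was the most abundant. Bmp4 (ENSMUSG00000021835.14, chromosome 14, 46383520 to 46390669, minus strand, GRCm38) had 1598, 1984, 2362 and 2123 normalised counts in WT-1 to WT-4, and 1940 in KO-1 and 2967 in KO-2. KO-1 lay inside the WT range and KO-2 above it. The log2 ratio was 0.28 (95% interval -0.17 to 0.73, adjusted p-value 0.53), and it was 0.56 without KO-1 and -0.04 without KO-2. KO-2 was also the library with the highest white and brown adipocyte and red blood cell markers, and the part of these in the value was not tested.

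Bmp2 (ENSMUSG00000027358.6, chromosome 2, 133552159 to 133562885, plus strand), a ligand known for inducing bone and cartilage, had 220.8, 316.1, 401.4 and 399.9 normalised counts in WT-1 to WT-4, 286.1 in KO-1 and 339.2 in KO-2. Both KO libraries lay inside the WT range, with WT-1 the lowest of all 6. In log2 units, KO minus WT was -0.10 (95% interval -0.67 to 0.47, adjusted p-value 0.898). It ran from -0.25 without WT-1 to 0.02 without KO-1.

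Bmp6 (ENSMUSG00000039004.6, chromosome 13, 38345107 to 38500302, plus strand), the ligand that controls hepcidin in the liver, varied most between the WT libraries among the ligands. It had 844.7, 1430, 1878 and 2198 normalised counts in WT-1 to WT-4, a 2.6-fold range, and 2389 in KO-1 and 2098 in KO-2. KO-1 was the highest of all libraries and KO-2 fell below WT-4, so the groups overlapped. The KO to WT difference in log2 units was 0.50 (95% interval -0.11 to 1.11, adjusted p-value 0.359). With 1 library left out it ran from 0.29 (without WT-1) to 0.70 (without WT-4). Of the 3900 bases of Bmp6 exons, 224 are shared with Txndc5 on the other strand (4994 normalised counts in WT and 4073 in KO), and whether the counting used strand is not stated.

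The order of the WT libraries in Bmp6 was also that of the summed endothelial markers, though not of each marker. Taken singly, Tek, Tie1, Emcn and Vwf had this order, and Pecam1, Cdh5, Kdr and Egfl7 did not. Summed over 8 endothelial genes, the level was 12730, 16970, 22200 and 22890 normalised counts in WT-1 to WT-4, and 32430 in KO-1 and 31380 in KO-2. Of these 8 genes, 4 passed the test and all 4 rose (Cdh5, Kdr, Tie1 and Vwf), none was at 0 in any library, and Egfl7 had a log2 ratio of -0.48 (adjusted p-value 0.134). Bmp2, Bmp4 and Bmp6 were all lowest in WT-1, the library with the lowest endothelial sum. An order of 4 libraries can match by chance, and the part of endothelial content in the ligand values was not tested. In whole tissue, a change in the number of endothelial cells and a change in RNA per cell cannot be told apart.

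**Figure D3:**
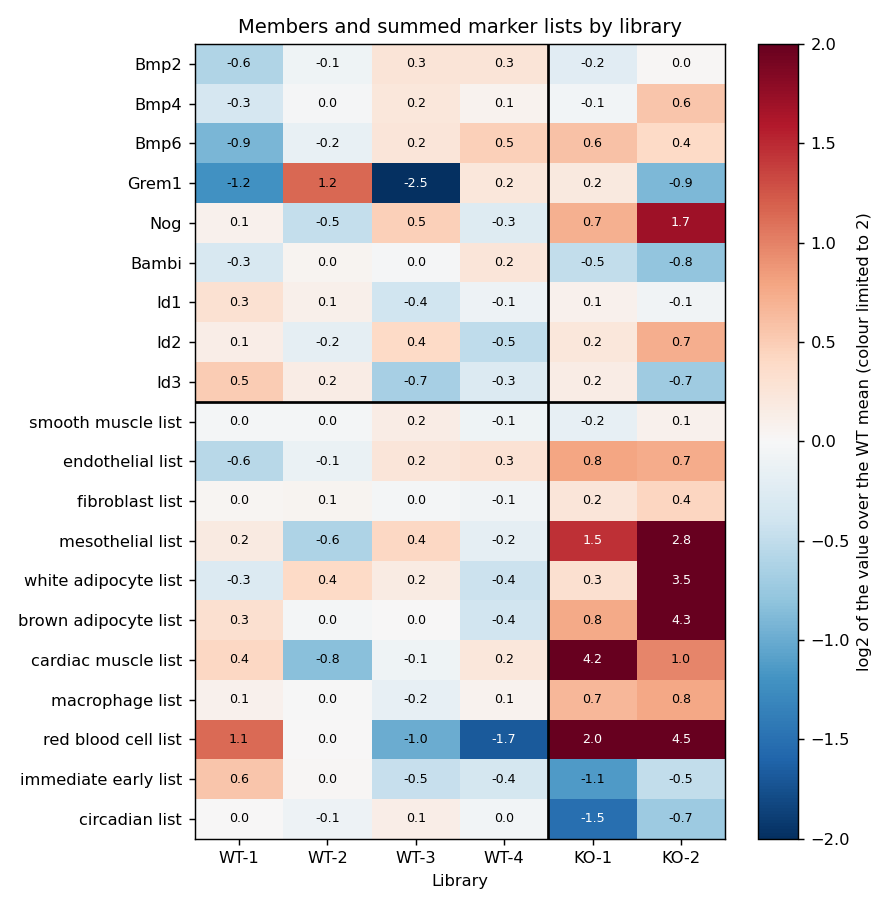
Heat map of the log2 of each value over its WT mean, by library (columns, WT to the left of the vertical line and KO to the right), for the 9 members (upper rows) and for summed marker lists (lower rows). Colour is limited to 2 log2 units, and the number in each cell is the value. The widest differences are in lists of other cell types, such as 4.49 for red blood cell markers and 4.30 for brown adipocyte markers in KO-2 and 4.18 for cardiac muscle markers in KO-1, while 7 of the 9 members stay within 1 log2 unit of the WT mean in every library.

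Of the antagonists, Bambi fell in KO and Grem1 and Nog did not pass the test. Bambi (ENSMUSG00000024232.1, chromosome 18, 3507923 to 3516404, plus strand) had 710.7, 916, 868.8 and 1046 normalised counts in WT-1 to WT-4, and 626 in KO-1 and 512.6 in KO-2. Both KO libraries lay below every WT library. The WT mean was 885.4 ± 138.6 (SD, n = 4) and the KO mean 569.3 ± 80.2 (SD, n = 2), with a log2 ratio of -0.64 (standard error 0.22, adjusted p-value 0.0397), so WT was 1.55-fold higher. The log2 change against the WT mean was -0.50 in KO-1 and -0.79 in KO-2. Bambi passed in 6 of 16 alternative fits, with adjusted p-values from 0.00808 to 1 and log2 ratios from -0.79 to -0.49. It did not pass with edgeR (0.0826), with total counts as scaling (0.104), with filtering and outlier handling off (0.0575) and without WT-2 (0.125), WT-3 (0.077), WT-4 (0.104) or KO-2 (0.309).

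Grem1 (ENSMUSG00000074934.3, chromosome 2, 113746164 to 113758646, minus strand), which encodes gremlin 1, a trap for BMP2, BMP4 and BMP7, differed more within WT than between groups. It had 38.4, 201.2, 15 and 105.5 normalised counts in WT-1 to WT-4, a 13.4-fold range, and 103.2 in KO-1 and 47.9 in KO-2. Both KO libraries fell in the middle of the WT values. The log2 ratio was -0.25 (95% interval -1.69 to 1.19, adjusted p-value 0.9), and it was 0.52 without WT-2, 0.21 without KO-2 and -0.91 without KO-1.

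Nog (ENSMUSG00000048616.4, chromosome 11, 89300638 to 89302332, minus strand), which encodes noggin, was the least abundant member. It had 12.1, 8.08, 16 and 9.4 normalised counts in WT-1 to WT-4, and 19 in KO-1 and 38.1 in KO-2. Both KO libraries lay above every WT library; KO-1 and WT-3 differed by 19 against 16. The KO to WT difference in log2 units was 1.32 (95% interval -0.13 to 2.76), and the adjusted p-value of 0.29 did not pass. Without KO-2 the log2 ratio was 0.75.

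Of the Id genes, 0 of 3 passed the adjusted p-value with DESeq2 (10.1% of all tested genes did) or with edgeR. At an unadjusted DESeq2 p-value under 0.05 the count was also 0 (21.8% of all tested genes). A count over 3 genes cannot be told apart from these shares. Id1 (ENSMUSG00000042745.9, chromosome 2, 152736251 to 152737410, plus strand), a well known direct target of BMP Smads, had the estimate closest to 0 of all members. It had 1910, 1664, 1179 and 1452 normalised counts in WT-1 to WT-4, and 1646 in KO-1 and 1473 in KO-2. Both KO libraries lay inside the WT range. In log2 units, KO minus WT was 0.01 (95% interval -0.42 to 0.44, adjusted p-value 0.991), with the interval inside a 2-fold change in either direction. With 1 library left out it ran from -0.10 (without WT-3) to 0.12 (without WT-1).

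Id3 (ENSMUSG00000007872.3, chromosome 4, 136143497 to 136145755, plus strand), which is close to Id1 in function, varied more. It had 6406, 5001, 2832 and 3727 normalised counts in WT-1 to WT-4, a 2.26-fold range, and 4988 in KO-1 and 2741 in KO-2. KO-1 lay inside the WT range and KO-2 just below it. The log2 ratio was -0.22 (95% interval -0.83 to 0.40, adjusted p-value 0.768), and it was -0.71 without KO-1 and 0.16 without KO-2.

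The WT libraries stood in the same order for Id1 and Id3, with WT-1 highest, then WT-2, WT-4 and WT-3. Id genes are also known to be induced quickly by serum, so 10 immediate early genes were set beside them. Their summed level was 38610, 26560, 19120 and 20540 normalised counts in WT-1 to WT-4, and 11960 in KO-1 and 18620 in KO-2. The order of these sums within WT was the same as for Id1 and Id3, but of the 10 genes taken singly only Nr4a1 had it. In KO the sums lay below every WT library, whereas Id1 did not, and 3 of the 10 genes passed the test, all lower. The part of immediate early induction in the Id values was not tested.

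Id2 (ENSMUSG00000020644.9, chromosome 12, 25093799 to 25097140, minus strand) is expressed in many cell types, immune and fat cells among them, and responds to more signals than BMP. It had 4465, 3603, 5342 and 2874 normalised counts in WT-1 to WT-4, and 4777 in KO-1 and 6744 in KO-2. KO-2 was above every WT library and KO-1 inside their range. In log2 units, KO minus WT was 0.50 (95% interval 0.0 to 1.0, unadjusted p-value 0.0505, adjusted p-value 0.231 with DESeq2). It was 0.24 without KO-2, the library in which all 6 white and all 6 brown adipocyte genes were at their highest, and the part of fat tissue in the value was not tested.

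Promoter sequence was at hand for 5 of the 9 members (Bmp4, Bmp6, Grem1, Id2 and Id3) in RefSeq windows on GRCm38.p6. The stretches before the start that no annotated exon covers are shown for Id2, as the Id gene with such a stretch, and for Grem1 and Bmp4, as an antagonist and a ligand of the same pathway. Those of Bmp6 and Id3 are exonic throughout and are not shown. The Id2 stretch lies before the RefSeq start but inside the span of the longer GENCODE gene, between its exons, so it is intronic sequence of that longer gene model. Capitals mark matches, on either strand, to GGCGCC (a GC-rich motif bound by Smad1 and Smad5), CAGAC (a Smad box), CACGTG (the E-box of clock factors) and TGACGTCA (a cAMP response element).
Id2 window, chr12:25096254-25096342, minus strand: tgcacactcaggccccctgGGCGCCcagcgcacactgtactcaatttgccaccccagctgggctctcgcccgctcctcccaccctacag
Grem1 promoter, chr2:113758649-113758898, minus strand: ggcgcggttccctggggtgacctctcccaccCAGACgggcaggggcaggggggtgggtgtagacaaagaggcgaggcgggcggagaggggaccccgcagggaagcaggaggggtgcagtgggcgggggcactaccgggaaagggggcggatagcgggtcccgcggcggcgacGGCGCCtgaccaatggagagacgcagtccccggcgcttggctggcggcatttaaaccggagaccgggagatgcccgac
Bmp4 promoter, chr14:46390670-46390919, minus strand: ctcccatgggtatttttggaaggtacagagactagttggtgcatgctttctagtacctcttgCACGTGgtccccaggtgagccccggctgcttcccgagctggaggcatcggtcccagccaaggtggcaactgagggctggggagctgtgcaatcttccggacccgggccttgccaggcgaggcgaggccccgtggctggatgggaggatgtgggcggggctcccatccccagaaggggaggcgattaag
The motif GGCGCC was found once in Id2 and once in Grem1, and 9.59% of all 32851 promoter windows held it in the 250 bases before the start. CAGAC was found once in Grem1, once in Bmp6 and at 2 places in Id3 (42.2% of windows), and CACGTG once in Bmp4 and once in Bmp6 (6.02%). TGACGTCA was in none of the 5 windows searched (1.55% of windows). The matches are letters only, and none of these 5 genes passed the test between KO and WT.

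The other genes of the pathway were then examined as 63 genes on 7 lists, ordered from ligands to targets. Of these, 55 had an adjusted p-value and 11 passed it (20%, against 10.1% of all genes), 6 higher and 5 lower. With the 2-fold threshold, 7 were called (12.7%, against 5.49% of all genes), 3 higher and 4 lower. The lists were written with earlier results of these data known, so these shares are no test of the pathway. All but 1 of the 11 were ligands or extracellular antagonists and modulators. The groups overlapped in none of the 11, but passing the test favours such separation, which 33.9% of all tested genes had.

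Of 10 other ligands, 5 were tested, 1 rose and 1 fell. Bmp3, an atypical ligand that counters the other BMPs, had 1586, 1394, 1826 and 1922 normalised counts in WT-1 to WT-4, and 630.5 in KO-1 and 516.2 in KO-2. It fell by 1.55 on the log2 scale (standard error 0.21, adjusted p-value 1.16e-11), and both KO libraries lay far below the WT range. Gdf6, a ligand of the growth and differentiation factor branch, rose from 77.3 ± 14.2 (SD, n = 4) to 261.3 ± 75.8 (SD, n = 2), by 1.76 log2 units (adjusted p-value 6.15e-06). The endothelial ligand of the circulation, Gdf2, had 5.49 to 8.99 normalised counts in WT, 16.7 in KO-1 and 38.1 in KO-2, and did not pass (adjusted p-value 0.143). Bmp10 had 0 counts in all libraries.

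Extracellular antagonists and modulators moved in both directions. Of 17 listed, 15 were tested, 4 rose and 4 fell, with a median log2 ratio of -0.40. Among those that fell, Mgp, the matrix Gla protein that binds BMPs and restrains calcification, had 60370, 59500, 55130 and 51150 normalised counts in WT-1 to WT-4, and 16870 in KO-1 and 15990 in KO-2. Its log2 ratio was -1.78 (standard error 0.15, adjusted p-value 1.17e-28), and it was lower in all 16 alternative fits, with adjusted p-values of at most 0.00123. Fstl3, an activin-binding follistatin relative, changed by -1.08 (adjusted p-value 2.93e-07), Nbl1, a member of the DAN family of antagonists, by -1.0 (0.000115), and Fstl1, a secreted glycoprotein, by -0.73 (0.00208). Fstl1 did not pass without KO-2 (adjusted p-value 0.0574).

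Among the 4 that rose, 3 are described here. Bmper, which binds BMPs outside the cell, rose by 1.18 (0.03), Chrdl1, a chordin relative, by 0.87 (0.0114) and Fst, follistatin, by 0.80 (0.023), all log2 ratios with adjusted p-values. None of these 3 passed with edgeR, at adjusted p-values of 0.0669 for Bmper, 0.0734 for Chrdl1 and 0.0508 for Fst. None passed without KO-1 (0.205, 0.248 and 0.233), nor did Bmper without WT-1, WT-2, WT-3 or KO-2 (0.0603 to 0.103), Chrdl1 without WT-2 (0.0661) and Fst without WT-3 (0.0566) or WT-4 (0.054). In both KO libraries the summed markers of macrophages, mesothelial cells, endothelial cells and fibroblasts were also higher than in every WT library. So were those of red blood cells, brown adipocytes and cardiac muscle. Single genes did not all follow: Egfl7 was lower, Emcn in KO-1 lay inside the WT range, and of 8 fibroblast genes 2 passed, both higher. The part of these cell types in the rises of the 3 genes was not tested. Chrd, chordin itself, had a log2 ratio of -0.78 and did not pass (adjusted p-value 0.0705).

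**Figure D4:**
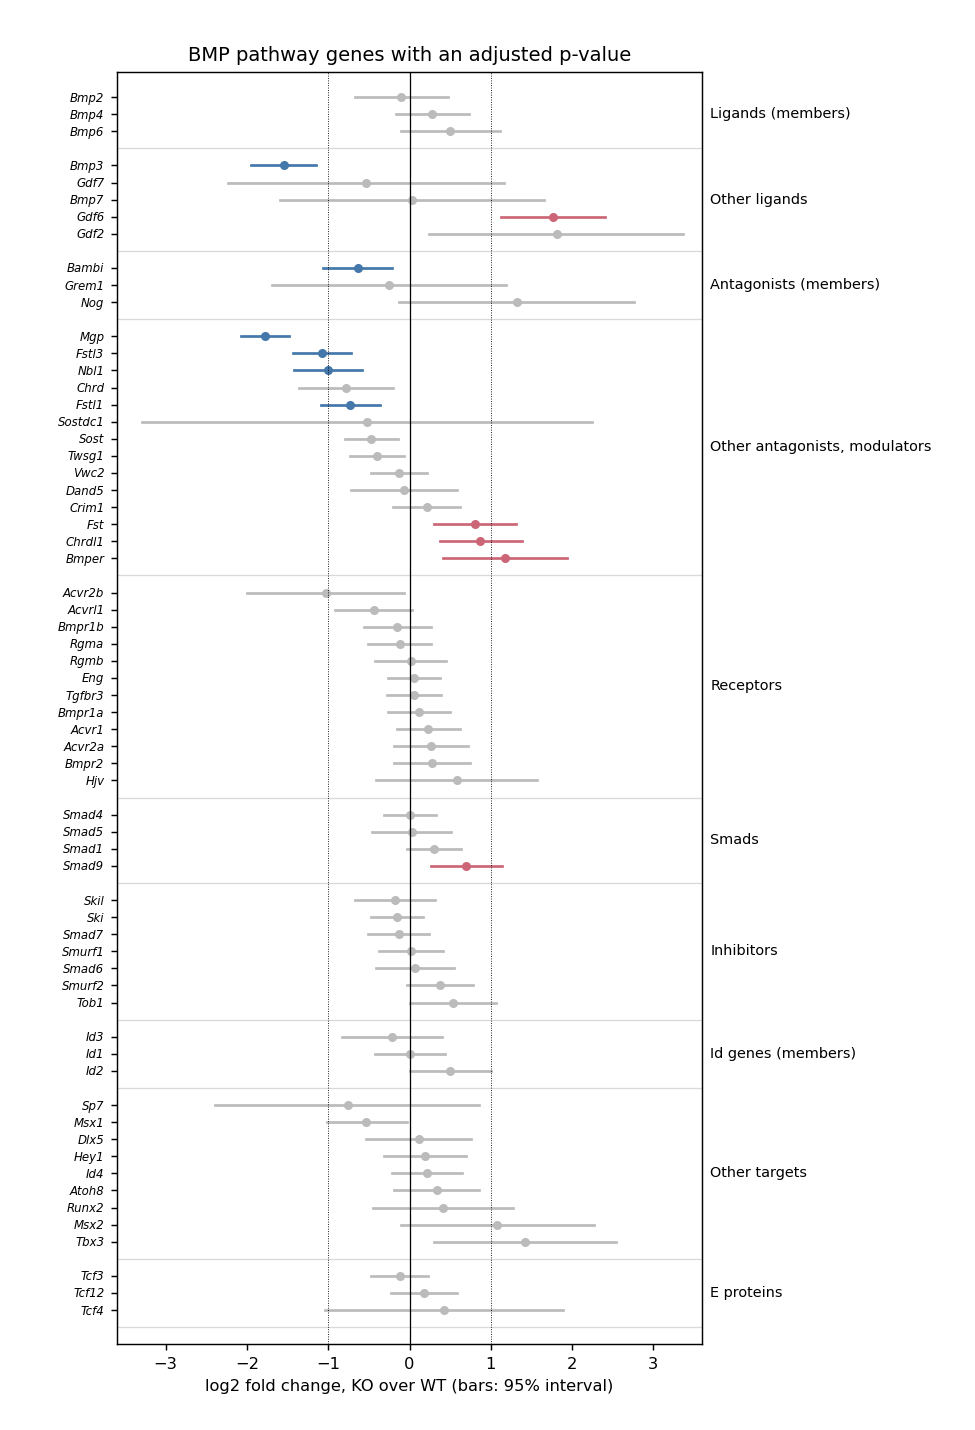
Log2 ratios of KO to WT (x axis) with 95% intervals for the members and the other pathway genes that had an adjusted p-value, grouped by role, with 1 gene not shown. Blue marks genes that fell and red genes that rose at an adjusted p-value of 0.05, grey those that did not pass, and dotted lines mark a 2-fold change. Coloured genes lie among the ligands and among the antagonists and modulators, where Bambi is a membrane protein. Smad9 is the only coloured gene outside these groups.

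Receptors, Smads, inhibitors and targets came next. As background, 10.1% of all tested genes passed the adjusted p-value and 21.8% had an unadjusted DESeq2 p-value under 0.05. Of 12 receptors and co-receptors, among them Bmpr1a, Bmpr2, Acvrl1 and Eng, 0 passed, with a median log2 ratio of 0.05, and 1 had an unadjusted p-value under 0.05. Of the 4 Smads of the BMP branch, Smad9 rose from 830.3 ± 162.6 (SD, n = 4) to 1353 ± 147.7 (SD, n = 2), by 0.70 log2 units (adjusted p-value 0.0199), and did not pass with edgeR (0.0735) or without WT-1 (0.0572), WT-2 (0.0913), WT-4 (0.0533) or KO-2 (0.208). Smad1 (0.30), Smad5 (0.03) and Smad4 (0.01) did not pass. Of 7 intracellular inhibitors 0 passed, with 0 at an unadjusted p-value under 0.05, and the feedback inhibitors Smad6 and Smad7 had log2 ratios of 0.07 and -0.13. Of 10 other targets 9 were tested and 0 passed, with 2 at an unadjusted p-value under 0.05, and Id4, the fourth Id gene, had a log2 ratio of 0.21. The 3 E proteins that Id proteins bind (Tcf3, Tcf4 and Tcf12) did not pass.

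The genes whose profile over the 6 libraries was most like that of each member were looked up among genes with a mean of at least 100 normalised counts. By Pearson correlation of log2 normalised counts over these 6 libraries, these were Med6 (0.991) and Gata3 (0.978) for Bmp2, Abhd5 (0.996) and Gimap6 (0.994) for Bmp4, and Adnp (0.997) and Nck1 (0.996) for Bmp6. They were Gfod2 (0.975) and Erh (0.966) for Grem1, Zkscan8 (0.993) and Negr1 (0.991) for Nog, and Tiam2 (0.997) and Eya3 (0.995) for Bambi. For the Id genes they were Ptger1 (0.987) and Stoml2 (0.985) for Id1, E130311K13Rik (0.989) and Tma7 (0.985) for Id2, and Particl (0.995) and Gcdh (0.992) for Id3. Genes above 0.95 numbered from 2 of 11447 for Grem1 and 8 of 11446 for Bmp2 to 100 of 11447 for Nog and 104 of 11446 for Bmp6. The points share the same libraries and size factors. With 6 libraries and so many genes compared, high correlations also arise by chance, so the named genes are a description only.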

How the data were processed

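Total RNA of whole thoracic aortas was sequenced in 6 libraries, 4 WT and 2 KO. The authors trimmed reads with Trim Galore, aligned them with HISAT2 (GRCm38) and quantified GENCODE M15 genes with StringTie. For each gene the authors deposited an estimated count, a whole number not scaled for depth; how coverage was turned into counts and whether strand was used is not given in the sources used here. Columns carry codes, and their match to WT and KO was read from these codes. Positions, exon lengths and symbols came from GENCODE M21 on GRCm38, in which 52489 of 52636 identifiers were found without version number.

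KO was compared with WT with DESeq2 1.42.0 in R 4.3.3 (Wald test, median-of-ratios size factors, other settings at default) over all genes. Passing means an adjusted p-value (Benjamini-Hochberg) below 0.05, and called means a change of more than 2-fold as well. Intervals are 95% (1.96 standard errors). Log2 changes of single libraries use a pseudocount of 0.5. The test was also run on counts simulated from the fitted mean and spread of each gene, with changes set in some genes. These counts lack the differences in cell type markers between KO-1 and KO-2, so they do not check the test against such differences. Alternatives were edgeR 4.0.16 (quasi-likelihood, with and without a filter), TMM or total-count scaling, size factors without mitochondrial genes, a filter of 10 counts in 2 libraries, filtering and outlier handling off, a test against a 2-fold change, each library left out, and the replicate number as a block. Independent filtering set at 0.05 was added after seeing the data. The study describes the libraries as 4 WT and 2 KO mice. Named were all members, genes of the pathway lists, and the 2 genes most like each member. Members and lists were chosen with earlier results of these data known. In the pathway counts, 1 gene is included whose result is not reported here.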

Additional observations from a re-analysis of the deposited data

Results flagged for a closer look

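Dixon's test (95% critical value) was run on the 4 WT values of 78 results, comparing the distance of the highest or lowest library from the next with the whole spread. It marked 6 results, and chance alone marks about 1 in 20, or 3.9 here. None of the 9 members was among them. The KO group is too small for the same check.

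The 6 values were all normalised counts of other pathway genes. Tcf4, an E protein, stood at 3651 in WT-1 against 1068 to 1192 in the rest of WT, with 1446 in KO-1 and 3306 in KO-2. Tob1, an inhibitor of BMP Smads, had 1205 in WT-3 and 696 to 739.3 in the others. In WT-4, Rgmb, a BMP co-receptor, had 822.8 against 663.6 to 676.6, Smad1 had 840.5 against 779.5 to 787.9, and Dand5, a secreted antagonist, had 83.5 against 124.1 to 130.8. Vwc2 had 786.5 in WT-1 and 916 to 929.3 in the others.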

How the results depend on the processing

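The count of all genes called, 963, was 633 with edgeR, 562 under the replicate block, 115 when tested against a 2-fold change, and 636 (without KO-2) to 1282 (without KO-1) with 1 library left out. The share of calls that were higher, 62.8%, was 48.1% without KO-2. Members called numbered 0 in each alternative but the replicate block, which called 1 (Bmp6, log2 ratio 1.03, adjusted p-value 0.0413). Members past the adjusted p-value numbered 1 (Bambi), but 0 with edgeR with and without a filter, with total counts, with filtering and outlier handling off and against a 2-fold change, and 0 to 1 with 1 library left out (0 without WT-2, WT-3, WT-4 or KO-2). Under the replicate block the member that passed was Bmp6 and no longer Bambi (adjusted p-value 0.554), the log2 ratio of Bmp2 turned to 0.24, and Bmper (adjusted p-value 0.438), Chrdl1 (0.0533), Fst (0.563) and Smad9 (0.0795) did not pass. Pathway genes called, 7, fell to 2 against a 2-fold change (Mgp among them) and ran from 5 to 7 with 1 library left out. Pathway genes past the adjusted p-value, 11, were 7 with edgeR with or without a filter, 7 under the replicate block, 2 against a 2-fold change and 9 to 11 with 1 library left out. Whether the numbers pair the libraries is not given in the sources used here. Deviations from the group means correlated by -0.13 between WT-1 and KO-1 and by -0.02 between WT-2 and KO-2. With 2 KO libraries, the deviations of KO-1 and KO-2 are mirror images, so these correlations cannot decide it. No direction of a passing gene reversed. The causes of these shifts were not tested. Levels under 20 normalised counts, as for Nog in WT, and 2 KO libraries limit what could be resolved.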

Other observations

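The summed endothelial markers were higher in both KO libraries, so the members were also set against Pecam1, an endothelial adhesion molecule, within each library. This ratio was chosen after the values were seen, and 18 ratios were computed. Bmp2 had 3.38, 3.95, 3.26 and 3.42 normalised counts per 100 counts of Pecam1 in WT-1 to WT-4, and 2.21 in KO-1 and 2.42 in KO-2, so both KO libraries lay below the WT libraries. Pecam1 was itself higher in KO-1 (12940) and KO-2 (14040) than in WT (at most 12320), although it did not pass the test (log2 ratio 0.48, DESeq2 adjusted p-value 0.25), and a higher denominator lowers the ratio of any gene. Of all 17537 genes tested, 32.9% had both KO ratios to Pecam1 below every WT ratio, and 58.9% on the sum of the 8 endothelial genes, so the separation of Bmp2 is no result about Bmp2. Bambi was separated in the same direction on both scales and Id1 on the sum only (5.31 to 15 in WT, 5.08 in KO-1 and 4.69 in KO-2). Bmp6 had 13 to 18.8 counts per 100 of Pecam1 in WT, 18.5 in KO-1 and 14.9 in KO-2, and its groups overlapped. With 4 against 2 libraries the two-sided exact permutation test cannot go below 0.133, which is its value for each of the separated ratios.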
